A study of Mus musculus with 6 samples.

Results

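The mitochondrial protein import genes of mouse 3T3-L1 cells were described across cultures that had differentiated with LTK-14A, with its solvent DMSO, or with neither. Members were chosen by gene symbol. No measured value entered the rule, although earlier results of these data were known when it was set. The rule took every symbol beginning with Timm or Tomm and a digit, together with Dnajc19, Grpel1, Hspa9, Pam16, Pmpca, Pmpcb and Samm50. It left out 2 symbols with the pseudogene suffix -ps, Hspa9-ps1 and Dnajc19-ps. Members were 33 of the 53342 genes in the table, of which 32 are protein coding and 1, Tomm6os, is annotated as an antisense RNA. Of the 33, 32 passed the filter on low values (at least 1 normalized unit in at least 2 libraries). Tomm20l, a relative of the receptor gene Tomm20, was listed at 0 in 5 libraries and at 3.19 in untreated replicate 2, and was not tested.

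3T3-L1 is a fibroblast-like mouse line that becomes fat-storing adipocytes under hormones. Confluent cells of all 3 groups, in medium with 10% serum, received insulin (1 µg/ml), IBMX (0.5 mM) and dexamethasone (1 µM) for 2 days and were then kept on insulin. The groups, each of 2 libraries of total RNA depleted of ribosomal RNA, were LTK-14A, which the labels call a butyrylation inhibitor, DMSO and untreated. How much LTK-14A was given, and from when, is not stated in the sources used here. Samples are numbered but not called separate cultures, so p-values here measure the spread between libraries of a group, which may be technical.

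Most mitochondrial proteins are made in the cytosol as precursors and must cross 1 or both membranes of the organelle. The TOM complex is the entry gate of the outer membrane, the SAM complex folds barrel proteins into that membrane, and small TIM chaperones escort hydrophobic precursors across the space between the membranes. TIM22 inserts carrier proteins into the inner membrane, whereas TIM23 passes precursors with a cleavable presequence to the matrix, where a motor built on the Hsp70 chaperone pulls them in and a processing peptidase removes the presequence. Fat cell differentiation is known to be accompanied by growth of the mitochondrial mass, which needs this machinery.

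The import genes were, as a group, at lower RNA levels in the LTK-14A libraries than in either control. Their summed level was 7658 and 6976 normalized units in LTK-14A libraries, against 10249 and 10269 in DMSO and 11251 and 12083 in untreated libraries. The LTK-14A mean of 7317 ± 483 units lay 28.7% below the DMSO mean of 10259 ± 14.2 and 37.3% below the untreated mean of 11667 ± 588 (SD, n = 2 each). As a share of each library's total, the sum was 0.119% and 0.111% in LTK-14A, 0.167% and 0.162% in DMSO and 0.177% and 0.1704% in untreated libraries. The DMSO mean lay 12.1% below the untreated mean. Hspa9 weighed most in the sum, with a mean of 2467 units in LTK-14A, 3315 in DMSO and 3747 in untreated libraries. In these bulk samples, fewer cells of a type and less RNA per cell cannot be told apart.

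Genes were tested with limma on log2(value + 1) over the 24139 genes that passed the filter, with Benjamini-Hochberg adjustment over all of them and a threshold of 0.05. All log2 differences below are on that scale. Against DMSO, 9 of the 32 tested import genes were lower in LTK-14A cells and 0 were higher, or 28.1% lower, while 6.58% of all tested genes were lower and 3.98% higher. The 9 were Samm50, Tomm40, Grpel1, Timm9, Timm50, Pmpcb, Timm22, Tomm5 and Pmpca, and 17 import genes had an unadjusted p under 0.05, all of them lower, as had 26.3% of all tested genes in either direction. Against untreated cells, 15 were lower and 0 higher, or 46.9% lower, while 8.17% of all tested genes were lower and 4.68% higher. The 15 were those 9 with Hspa9, Timm13, Timm23, Timm29, Tomm22 and Tomm6, and both comparisons use the same LTK-14A libraries. The shares over all tested genes include many genes at low levels. With only genes of a mean of at least 20 kept, 11 of 30 members were lower against DMSO and 0 higher. Of all 13179 such genes, 1894 were lower and 1321 higher. Against untreated cells 18 of these members were lower and 0 higher, while 2374 of the 13179 genes were lower and 1594 higher. Between DMSO and untreated cells 0 import genes passed the threshold by limma, while 0.0249% of all tested genes passed in either direction. In that comparison 3 import genes had an unadjusted p under 0.05, against 5.83% of all tested genes.

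Counted by direction alone, members that did not pass were also mostly below 0. The log2 difference of LTK-14A against DMSO was below 0 in 30 of 32 members, with a median of -0.43, while over all tested genes 53.1% were below 0 and the median was -0.05. Against untreated cells, 28 members were below 0 with a median of -0.73, while over all tested genes 52.2% were below 0 with a median of -0.03. Both LTK-14A libraries lay below both DMSO libraries in 26 members and above both in 1, while this held for 29.8% and 24.5% of all tested genes. Against the untreated libraries the counts were 24 below and 1 above, while it held for 28.9% and 24.6% of all tested genes. The member above in each case was Tomm20. These shares over all tested genes include many genes at low levels, and the positions were not counted for genes of a mean of at least 20 alone. Between the controls, 23 members were below 0 in DMSO against untreated cells with a median of -0.18, while over all tested genes 50.4% were below 0 with a median of -0.0035. Both DMSO libraries lay below both untreated libraries in 15 members and above both in 2, Timm9 and Tomm34, while this held for 17.2% and 16% of all tested genes. The plot of each gene's values by library shows these positions.

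**Figure D1:**
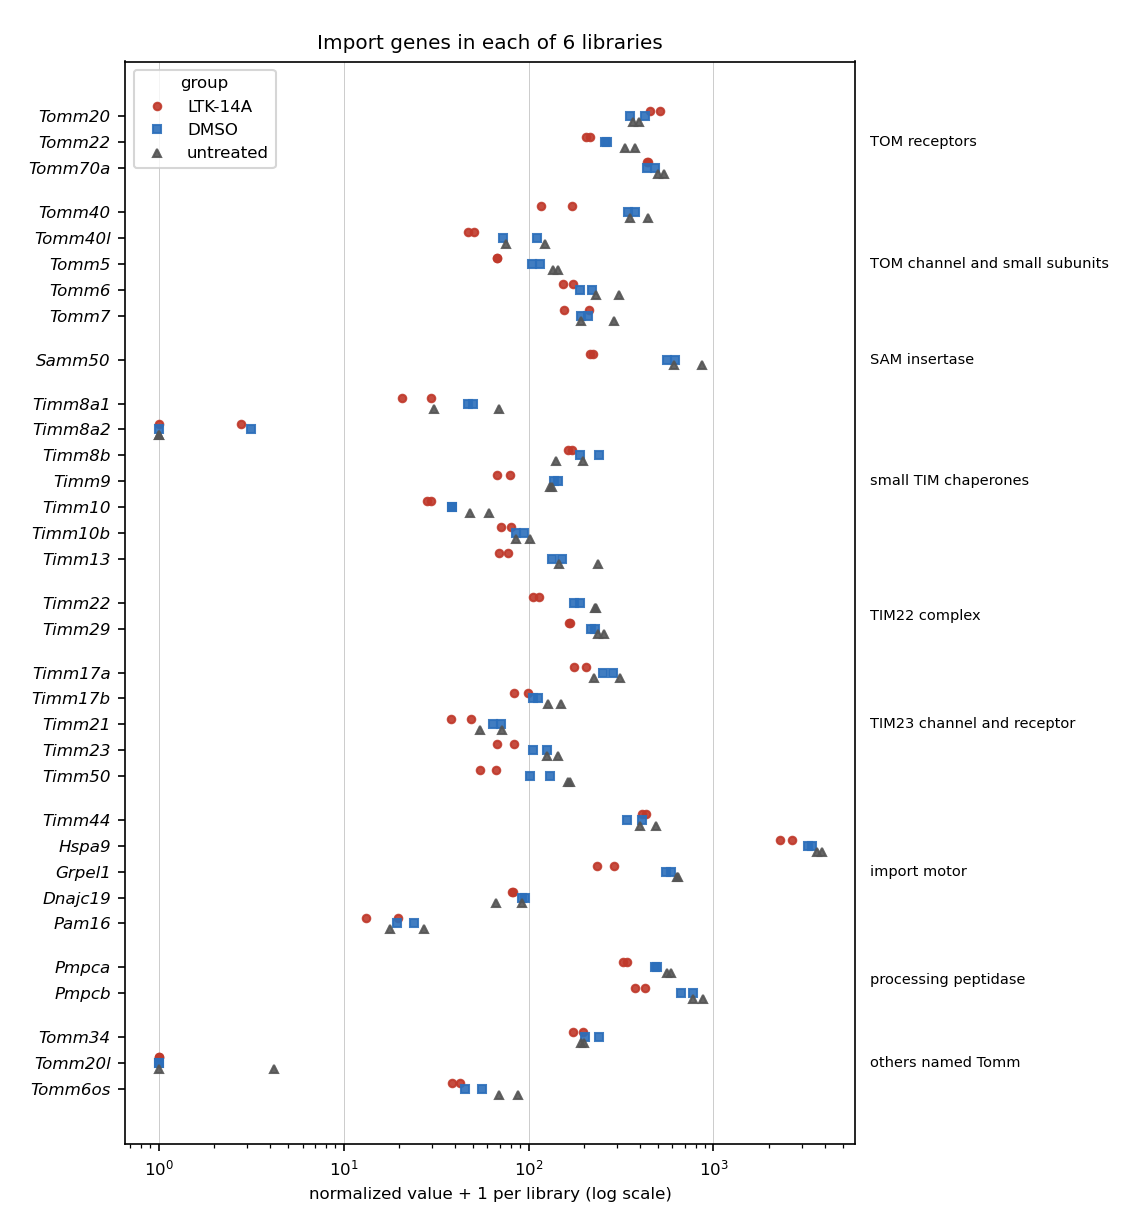
Normalized level of each import gene in every library, on a log scale with genes ordered by role; colours and symbols mark LTK-14A, DMSO and untreated libraries (2 each). In 26 of 32 tested genes both LTK-14A points lie below both DMSO points, and Tomm20 is the 1 gene with both above.

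No receptor gene of the TOM complex passed against DMSO. Tomm20, which recognises presequences, had 513 and 455 normalized units in LTK-14A libraries, against 426 and 352 in DMSO and 397 and 368 in untreated libraries. Its LTK-14A libraries were above all control libraries, yet the log2 difference against DMSO was 0.32 with a 95% interval of -0.02 to 0.66, and it did not pass (limma adjusted p = 0.221). Tomm70a, the receptor for carrier precursors and their cytosolic chaperones, had 440.4 and 434 units in LTK-14A, 481 and 438 in DMSO and 539 and 501 in untreated libraries. Its log2 difference against DMSO was -0.07 (95% interval -0.36 to 0.22), and the LTK-14A and DMSO values overlapped. Tomm22, which joins the receptors to the channel, had 202 and 214 units in LTK-14A, 257 and 266 in DMSO and 330.2 and 374 in untreated libraries. The 3 groups of Tomm22 did not overlap. Tomm22 fell against untreated cells (log2 difference -0.75, SE 0.14, limma adjusted p = 0.0126), whereas its difference of -0.33 against DMSO did not pass (limma adjusted p = 0.182).

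The RNA of the main channel gene of the outer membrane fell. Tomm40 (chr7:19701313-19715438, minus strand, mm10) encodes the barrel through which nearly all precursors enter, and it had 170.4 and 116 units in LTK-14A, 343 and 374 in DMSO and 354 and 443 in untreated libraries. The LTK-14A libraries were far below all 4 others. The log2 difference was -1.34 against DMSO (SE 0.21, limma adjusted p = 0.00809) and -1.49 against untreated cells (SE 0.21, limma adjusted p = 0.00467). Its paralogue Tomm40l had 49.7 and 46.3 units in LTK-14A, 71.4 and 110.3 in DMSO and 74.7 and 122 in untreated libraries, with no overlap of LTK-14A with either control. The difference of Tomm40l was -0.87 against DMSO and did not pass (limma adjusted p = 0.125). Tomm40l values are uncertain, since 64.3% of its exon bases lie opposite exons of a neighbour, Nr1i3, and it is not known whether strand was used in the counting.

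Of the 3 small TOM subunits, which help the complex to assemble and keep its form, Tomm5 (chr4:45105208-45108114, minus strand) fell. It had 66.3 and 66.4 units in LTK-14A, 114 and 104 in DMSO and 143 and 135 in untreated libraries. The 3 groups did not overlap, and the log2 difference was -0.70 against DMSO (SE 0.18, limma adjusted p = 0.0469) and -1.05 against untreated cells (limma adjusted p = 0.00896). Tomm6 had 153 and 173 units in LTK-14A, 188 and 219 in DMSO and 231 and 309 in untreated libraries. Tomm6 fell against untreated cells, at -0.71 (SE 0.19, limma adjusted p = 0.0483), and had a difference of -0.32 against DMSO that did not pass. Tomm6 is uncertain as well, because 75.95% of its exon bases are shared with the read-through gene Gm21981 on the same strand and 27.6% lie opposite other exons. Tomm7 had 211 and 155 units in LTK-14A, 209 and 191 in DMSO and 190.1 and 288 in untreated libraries, and its groups overlapped.

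The lowest log2 difference of all members, against either control, was that of Samm50 (chr15:84192233-84214303, plus strand), the core of the SAM complex that inserts barrel proteins such as Tomm40 into the outer membrane. Samm50 had 222 and 213 units in LTK-14A, 615 and 561 in DMSO and 612 and 863 in untreated libraries. LTK-14A was below every control library, by -1.43 against DMSO (SE 0.18, limma adjusted p = 0.00297) and by -1.74 against untreated cells (SE 0.18, limma adjusted p = 0.00105).

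**Figure D2:**
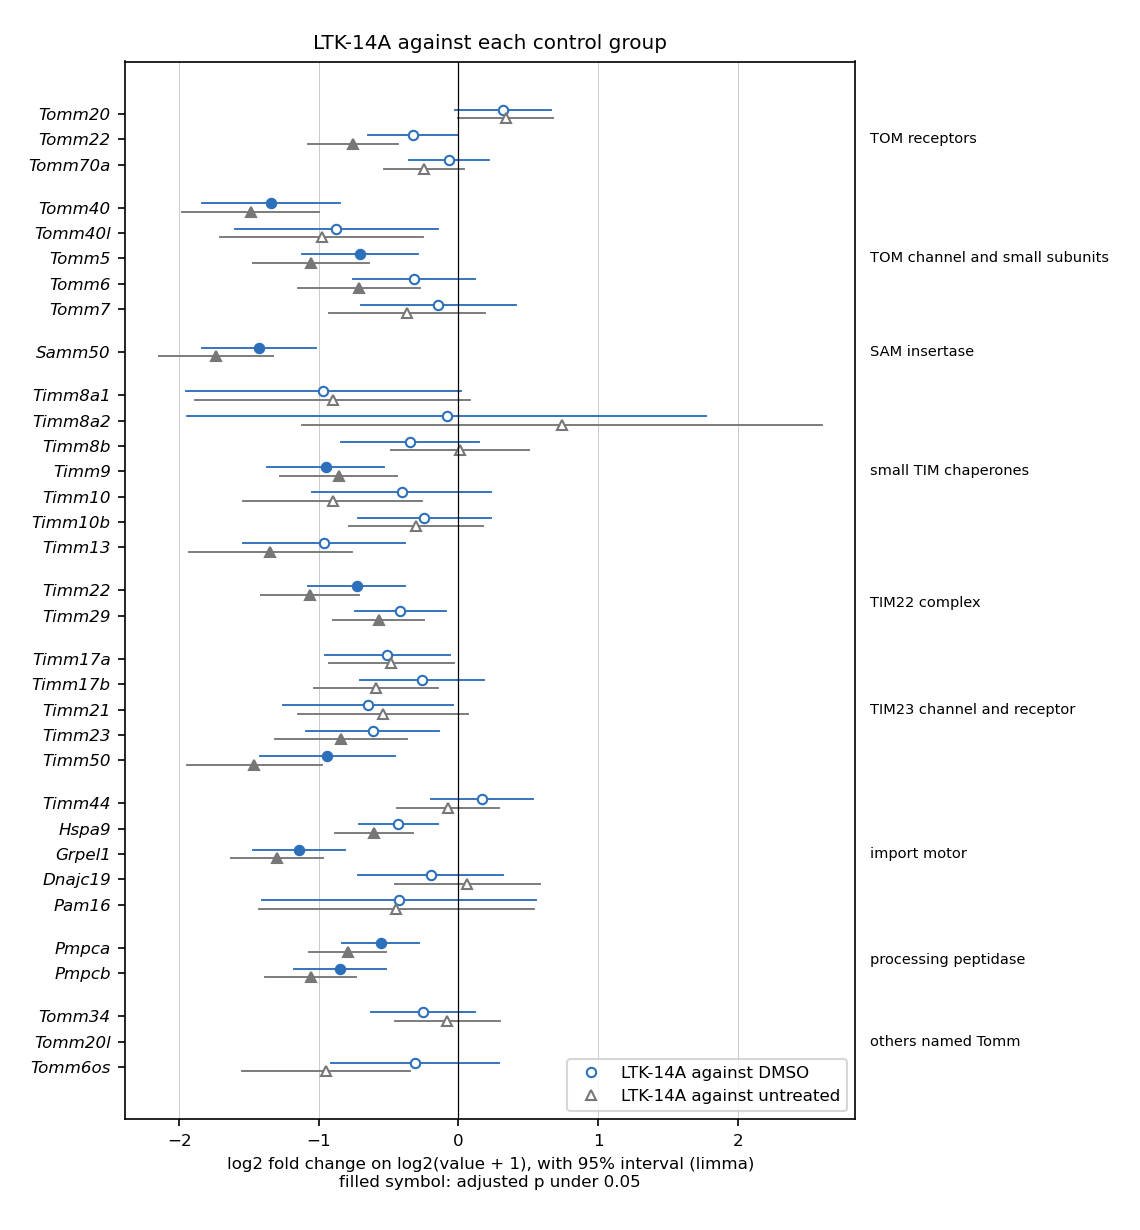
Log2 difference with its 95% interval for each tested import gene, grouped by role, for LTK-14A against DMSO and LTK-14A against untreated cells; filled symbols passed the threshold of 0.05 after adjustment over all genes. Of the differences against DMSO, those of Samm50 and Tomm40 lie farthest to the left, at -1.43 and -1.34, and the interval of Tomm20 lies mostly above 0.

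The small TIM chaperones form 2 hexamers in the intermembrane space, 1 of Timm9 with Timm10 and 1 of Timm8 proteins with Timm13. In the Timm9 hexamer, Timm9 (chr12:71123173-71136684, minus strand) had 66.2 and 78.0 units in LTK-14A, 143 and 136 in DMSO and 133 and 129 in untreated libraries. Timm9 fell, with a log2 difference of -0.95 against DMSO (SE 0.18, limma adjusted p = 0.0168) and -0.86 against untreated cells (limma adjusted p = 0.0210). Its partner Timm10 had 28.8 and 27.4 units in LTK-14A, 37.7 and 37.4 in DMSO and 47.3 and 60.1 in untreated libraries. Timm10 was thus lowest in LTK-14A without overlap, but its difference of -0.40 against DMSO did not pass (limma adjusted p = 0.422).

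In the other hexamer, Timm13 had 76.2 and 68.1 units in LTK-14A, 149.9 and 133 in DMSO and 145 and 236 in untreated libraries. Timm13 fell against untreated cells (-1.35, SE 0.25, limma adjusted p = 0.0132), and its difference of -0.96 against DMSO lay just outside the threshold (limma adjusted p = 0.0513). Timm8a1 had 19.8 and 28.6 units in LTK-14A, 48.9 and 46.3 in DMSO and 68.3 and 30.0 in untreated libraries. Timm8b had 172 and 162 units in LTK-14A, 189 and 239 in DMSO and 197 and 139 in untreated libraries. Neither passed in any comparison, and the untreated libraries of both were far apart. Timm8a2 was near the floor, at 1.80 in LTK-14A replicate 1, 2.15 in DMSO replicate 1 and 0 in the other libraries. Timm10b, which joins the small chaperones to TIM22, had 70.1 and 79.3 units in LTK-14A, 84.4 and 93.0 in DMSO and 101 and 84.2 in untreated libraries. It differed by -0.25 against DMSO and by -0.30 against untreated cells, and did not pass.

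Timm22 and Timm29 of the TIM22 complex lay below both controls in each LTK-14A library, whereas Agk, a partner in human TIM22, had 135 and 118 units in LTK-14A, against 116 and 88.1 in DMSO and 112 and 95.3 in untreated libraries and did not pass. Timm22 (chr11:76406952-76416292, plus strand), the pore-forming subunit, had 114 and 105 units in LTK-14A, 188 and 176 in DMSO and 227 and 232 in untreated libraries. The groups did not overlap, and Timm22 fell by 0.73 on the log2 scale against DMSO (SE 0.15, limma adjusted p = 0.0230) and by 1.06 against untreated cells (limma adjusted p = 0.00464). Timm29, a subunit that in human cells links TIM22 to the TOM complex, had 165 and 166 units in LTK-14A, 215 and 227 in DMSO and 255 and 238 in untreated libraries. Timm29 fell against untreated cells (-0.57, SE 0.14, limma adjusted p = 0.0375) and had a difference of -0.42 against DMSO that did not pass (limma adjusted p = 0.107).

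Among genes of the TIM23 complex the receptor gene fell, and the channel genes lay below DMSO without passing. Timm50 (chr7:28305516-28312072, minus strand), which receives presequences as they emerge from TOM, had 65.6 and 53.4 units in LTK-14A, 101 and 129 in DMSO and 163 and 167 in untreated libraries. Timm50 was ordered LTK-14A, DMSO, untreated without overlap, at -0.94 against DMSO (SE 0.21, limma adjusted p = 0.0301) and -1.46 against untreated cells (limma adjusted p = 0.00472). Timm23, the core of the channel, had 67.0 and 82.2 units in LTK-14A, 105 and 124 in DMSO and 125 and 144 in untreated libraries. Timm23 fell against untreated cells (-0.84, SE 0.20, limma adjusted p = 0.0352), and the difference of -0.61 against DMSO did not pass (limma adjusted p = 0.103).

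Timm17a and Timm17b are alternative channel partners of Timm23. Timm17a had 204 and 175 units in LTK-14A, 286 and 253 in DMSO and 310.5 and 224 in untreated libraries. Timm17b had 98.5 and 82.7 units in LTK-14A, 112 and 105 in DMSO and 126 and 148 in untreated libraries. Both were below each control without overlap, with log2 differences of -0.51 and -0.26 against DMSO that did not pass. Timm21, which tethers TIM23 to TOM, had 47.8 and 37.2 units in LTK-14A, 69.9 and 63.6 in DMSO and 70.6 and 54.0 in untreated libraries. It differed by -0.65 against DMSO and by -0.54 against untreated cells and did not pass either.

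Genes of the motor that pulls precursors into the matrix were mixed. Grpel1 (chr5:36464998-36474080, plus strand), the nucleotide exchange factor that resets the Hsp70, had 287 and 233 units in LTK-14A, 554 and 589.9 in DMSO and 635 and 638 in untreated libraries. Grpel1 fell by 1.14 on the log2 scale against DMSO (SE 0.14, limma adjusted p = 0.00299) and by 1.30 against untreated cells (limma adjusted p = 0.00149). Hspa9, the matrix Hsp70 itself (mortalin), had 2646 and 2287 units in LTK-14A, 3409 and 3222 in DMSO and 3642 and 3851 in untreated libraries. Its 3 groups did not overlap. Hspa9 fell against untreated cells (-0.61, SE 0.12, limma adjusted p = 0.0170), whereas the difference of -0.43 against DMSO did not pass (limma adjusted p = 0.0643). A pseudogene copy, Hspa9-ps1, had 85.4 and 80.7 units in LTK-14A, 137 and 108 in DMSO and 139 and 85.3 in untreated libraries, and reads may have been split between it and Hspa9.

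Timm44, the scaffold that anchors Hspa9 at the channel, had 407 and 430.5 units in LTK-14A, 338 and 410.5 in DMSO and 399 and 486 in untreated libraries. Its groups overlapped, and the difference against DMSO was 0.17 with a 95% interval of -0.20 to 0.53. Dnajc19, the J-domain protein of the motor, had 80.05 and 81.6 units in LTK-14A, 91.0 and 94.8 in DMSO and 91.2 and 65.4 in untreated libraries. Its difference of -0.20 against DMSO did not pass, and its pseudogene copy Dnajc19-ps had 18.2 and 18.7 units in LTK-14A, 29.3 and 41.9 in DMSO and 42.3 and 22.6 in untreated libraries, so Dnajc19 values are uncertain. Pam16, the J-like protein, had 12.3 and 18.6 units in LTK-14A, 18.5 and 23.0 in DMSO and 16.7 and 26.2 in untreated libraries. Its groups overlapped, its difference of -0.42 against DMSO did not pass, and its standard error of 0.42 on the log2 scale was the largest of the motor genes.

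The genes for both subunits of the matrix processing peptidase, which cuts presequences from imported proteins, fell against both controls. Pmpca (chr2:26389339-26397122, plus strand), the substrate-binding subunit, had 339.6 and 322 units in LTK-14A, 493 and 482 in DMSO and 588 and 559 in untreated libraries. Pmpcb (chr5:21737141-21757152, plus strand), the catalytic subunit, had 423 and 373 units in LTK-14A, 664 and 772 in DMSO and 777 and 881 in untreated libraries. In each gene the 3 groups were ordered LTK-14A, DMSO, untreated without overlap. The log2 difference against DMSO was -0.56 for Pmpca (SE 0.12, limma adjusted p = 0.0256) and -0.85 for Pmpcb (SE 0.14, limma adjusted p = 0.00975), and 20.4% of the exon bases of Pmpca lie opposite exons of Inpp5e.

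The 2 remaining tested genes carry a Tomm symbol without being part of the TOM complex. Tomm34, a cytosolic cochaperone of precursors, had 197 and 173 units in LTK-14A, 202 and 240 in DMSO and 192 and 199 in untreated libraries. It differed by -0.25 against DMSO and by -0.08 against untreated cells, and did not pass. The antisense RNA Tomm6os had 41.8 and 37.5 units in LTK-14A, 44.1 and 55.3 in DMSO and 68.4 and 87.1 in untreated libraries. Its difference of -0.95 against untreated cells did not pass (limma adjusted p = 0.0531), and 48.9% of its exon bases lie opposite exons of other genes, so its reads and those of Tomm6 may not be told apart.

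Levels of different genes were compared per kilobase of annotated exon, as normalized units per kilobase. The length took all annotated exons of a gene together, which can exceed the length of the transcript present. The order of genes on this scale is therefore uncertain. Hspa9 was the most abundant member on this scale, with 572 ± 58.9 in LTK-14A, 769 ± 30.5 in DMSO and 869 ± 34.2 in untreated cells (SD, n = 2 each). In DMSO cells Timm8b followed with 413 ± 68.7, then Tomm6 with 180.2 ± 19.4, Tomm7 with 178 ± 11.003, Grpel1 with 162 ± 7.29 and Tomm22 with 158 ± 3.95 (SD, n = 2 each). Tomm6 and Tomm7 did not differ beyond their spread, nor did Grpel1 and Tomm22. The channel gene Tomm40 had 31.7 ± 8.52 in LTK-14A, 79.4 ± 4.94 in DMSO and 88.3 ± 13.9 in untreated cells, while the receptor gene Tomm20 had 98.6 ± 8.31 in LTK-14A, 79.2 ± 10.7 in DMSO and 77.9 ± 4.25 in untreated cells (SD, n = 2 each). On this scale, with 4906 exon bases for Tomm20 and 4513 for Tomm40, these genes stood at like levels in both controls and apart in LTK-14A cells. Whether their transcripts have those lengths was not tested.

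Several members have a paralogue or partner against which they can be read within 1 library, so that the scaling of the library has no part in the ratio. With 2 libraries against 2, an exact two-sided permutation test cannot go below p = 0.33, so these ratios could not pass, and with adjustment over the 6 ratios the lowest value was 0.400 in each LTK-14A comparison. The log2 ratio of Grpel1 to Grpel2, the second mitochondrial exchange factor, was 0.65 and 0.29 in LTK-14A, 1.71 and 1.99 in DMSO and 2.02 and 2.02 in untreated libraries. The mean difference of LTK-14A from DMSO was -1.38 log2 units without overlap, and Grpel2 itself had 182 and 190.5 units in LTK-14A, against 169 and 148 in DMSO and 156 and 157 in untreated libraries. The ratio of Dnajc19 to its paralogue Dnajc15 was 0.23 and 0.37 in LTK-14A, -0.83 and -0.84 in DMSO and -0.77 and -0.74 in untreated libraries. Here LTK-14A was higher by 1.13 log2 units than DMSO, with the doubt that Dnajc19-ps puts on Dnajc19, and Dnajc15 had 68.2 and 62.9 units in LTK-14A, 162 and 171 in DMSO and 156 and 110.2 in untreated libraries.

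The other ratios differed less. Pmpca to Pmpcb was -0.32 and -0.21 in LTK-14A, -0.43 and -0.68 in DMSO and -0.40 and -0.65 in untreated libraries. Timm17a to Timm17b was 1.04 and 1.07 in LTK-14A, 1.34 and 1.27 in DMSO and 1.29 and 0.59 in untreated libraries, so that it overlapped with untreated. Timm8a1 to Timm8b differed between LTK-14A and DMSO by -0.62 log2 units without overlap. Tomm40 to Tomm40l was 1.76 and 1.31 in LTK-14A, 2.25 and 1.75 in DMSO and 2.23 and 1.85 in untreated libraries. It overlapped between LTK-14A and DMSO.

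**Figure D3:**
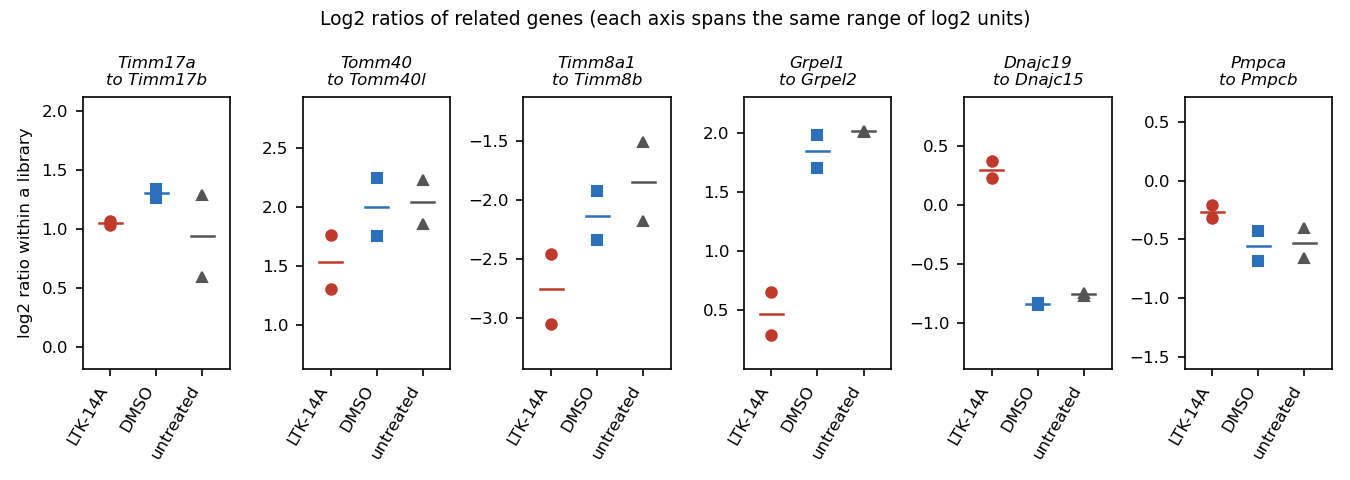
Log2 ratio of 6 gene pairs within each library, with group means as bars, for LTK-14A, DMSO and untreated cells (2 libraries each); every axis spans the same range. The difference of LTK-14A from DMSO is -1.38 for Grpel1 to Grpel2 and 1.13 for Dnajc19 to Dnajc15, and the other 4 pairs differ by less.

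Promoters were read for 29 of the 33 members from RefSeq (GRCm38.p6) as the 250 bases before to 50 after the annotated start. 2 motifs of factors known to act on mitochondrial genes were searched on both strands: the NRF1 motif GCGCANGCGC and the ETS family core CCGGAAG, which GABP binds. The NRF1 motif was in 3 of 29 members (Pam16, Timm8b and Tomm20), or 10.3%, while 5.19% of all promoters in the table and 9.77% of those of tested genes held it. The ETS core was in 12 of 29 members, or 41.4%, while 9.93% of all promoters and 17.4% of those of tested genes held it. Of the 9 genes that fell against DMSO, 0 held the NRF1 motif and 3 held the ETS core, while of the other 20 members 3 held the NRF1 motif and 9 the ETS core. A match is a description of the letters only.

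The 120 bases before the start are shown for the 3 receptor genes, none of which passed against DMSO, and for the channel, insertase and peptidase genes that fell, so that promoters with and without matches can be read beside the levels. Capitals mark matches to either motif, each sequence runs 5′ to 3′ on the strand of its gene, and a sequence without capitals held neither motif in this window. They lie in GRCm38.p6 at chr8:126945922-126946041 (minus) for Tomm20, chr16:57121594-57121713 (plus) for Tomm70a, chr15:79670748-79670867 (plus) for Tomm22, chr2:26389228-26389347 (plus) for Pmpca, chr5:21737040-21737159 (plus) for Pmpcb, chr15:84192120-84192239 (plus) for Samm50 and chr7:19715430-19715549 (minus) for Tomm40.
Tomm20: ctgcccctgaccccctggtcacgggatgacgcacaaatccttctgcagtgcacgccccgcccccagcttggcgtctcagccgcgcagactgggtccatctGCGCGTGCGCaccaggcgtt
Tomm70a: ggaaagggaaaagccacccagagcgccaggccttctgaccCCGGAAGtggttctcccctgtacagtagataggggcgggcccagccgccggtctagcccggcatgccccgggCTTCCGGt
Tomm22: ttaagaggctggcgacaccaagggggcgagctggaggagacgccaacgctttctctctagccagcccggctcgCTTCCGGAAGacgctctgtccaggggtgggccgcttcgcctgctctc
Pmpca: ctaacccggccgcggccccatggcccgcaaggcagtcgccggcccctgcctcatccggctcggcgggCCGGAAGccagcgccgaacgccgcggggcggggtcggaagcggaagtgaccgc
Pmpcb: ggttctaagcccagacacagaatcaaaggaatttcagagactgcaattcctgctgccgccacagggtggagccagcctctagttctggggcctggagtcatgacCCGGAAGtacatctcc
Samm50: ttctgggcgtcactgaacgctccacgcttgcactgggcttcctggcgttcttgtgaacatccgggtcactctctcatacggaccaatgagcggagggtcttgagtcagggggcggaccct
Tomm40: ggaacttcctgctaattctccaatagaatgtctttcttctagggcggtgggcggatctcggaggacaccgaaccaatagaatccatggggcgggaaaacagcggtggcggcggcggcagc
Tomm20 held the NRF1 motif. Tomm22 held the ETS core on both strands in overlapping letters and Tomm70a held it at separate places, while Pmpca and Pmpcb, which fell, held 1 match each here. Samm50 and Tomm40, with the lowest log2 differences of the members against DMSO, held neither motif. Grpel1, the next lowest at -1.14, held the ETS core farther from the start than the bases shown. The genes shown do not stand for all members, whose counts are given above.

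Some genes in other parts of the import route, given by lists of partner genes, were lower as well. Against DMSO, 6.58% of all tested genes were lower and 3.98% higher. Of the 13179 genes with a mean of at least 20, 1894 were lower and 1321 higher. The lists are short, and whether any of them differs from these shares was not tested. In the disulfide relay, which traps small proteins such as Timm9 and Timm10 in the intermembrane space, 3 of 4 genes fell against DMSO and 1 did not pass. The oxidoreductase Chchd4 had 38.0 and 43.6 units in LTK-14A, 135 and 111 in DMSO and 83.6 and 137 in untreated libraries (-1.57 against DMSO, limma adjusted p = 0.0128). Cycs, the electron acceptor cytochrome c, had 102 and 139.5 units in LTK-14A, 637 and 548 in DMSO and 691 and 362 in untreated libraries, and fell at -2.30. Aifm1, the anchor of Chchd4, fell at -0.89, whereas Gfer, which reoxidises Chchd4, differed by -0.20 and did not pass. In the MICOS complex, which shapes the inner membrane folds and contacts SAM, 2 of 7 genes fell: Immt had 762 and 859 units in LTK-14A, 2155 and 2151 in DMSO and 2277 and 2066 in untreated libraries, and Chchd3 differed by -0.84.

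Among 8 outer membrane partners, 2 fell against DMSO, the SAM component Mtx2 at -0.96 and Mtch2, an insertase in human cells, at -0.76, while the pore protein Vdac2 differed by 0.02 and did not pass. Among 8 partners of the TIM complexes and the motor, 2 fell against DMSO, Dnajc15 at -1.33 and Ghitm at -1.04, and 5 fell against untreated cells. Of all tested genes, 6.58% were lower against DMSO and 8.17% against untreated cells. Of 7 presequence and intermediate peptidases 1 fell, Xpnpep3 at -0.82, while Immp2l at -1.39 did not pass (limma adjusted p = 0.0662). Of 13 matrix chaperones and proteases 3 fell, Clpx at -0.99, Trap1 at -0.72 and Hspd1 at -0.54. Of 10 cytosolic chaperones that carry precursors to TOM, 0 fell and 1 rose, with a median log2 difference of 0.02 against DMSO and -0.07 against untreated cells. The 1 was Hsp90ab1, with 9164 and 8450 units in LTK-14A, against 5587 and 6134 in DMSO and 5830.01 and 6598 in untreated libraries (0.59 against DMSO, limma adjusted p = 0.0280), while Dnaja1 differed by -0.32 and did not pass. Of 12 regulators of mitochondrial biogenesis 3 fell, the coactivator Ppargc1b at -2.03, the nuclear receptor Esrra at -1.18 and the mitochondrial RNA polymerase Polrmt at -1.10. The factors named by the promoter motifs, Nrf1 at -0.07 and the GABP subunit Gabpa at 0.12, did not pass.

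Other nuclear gene families of the mitochondrion were set beside the import genes. Of 78 genes for mitochondrial ribosomal proteins (Mrpl and Mrps), 24 were lower against DMSO, or 30.8%, 0 were higher and the median log2 difference was -0.58. Nduf genes, most of them for subunits and assembly factors of respiratory complex I, were taken by symbol. Of 45 tested Nduf genes, 23 were lower against DMSO, or 51.1%, 0 were higher and the median was -0.80. Over all tested genes 6.58% were lower against DMSO and 3.98% higher. The log2 difference was below 0 in 30 of the 32 import genes, in 74 of the 78 ribosomal protein genes and in 43 of the 45 Nduf genes. Whether these families differ from the import genes was not tested.

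**Figure D4:**
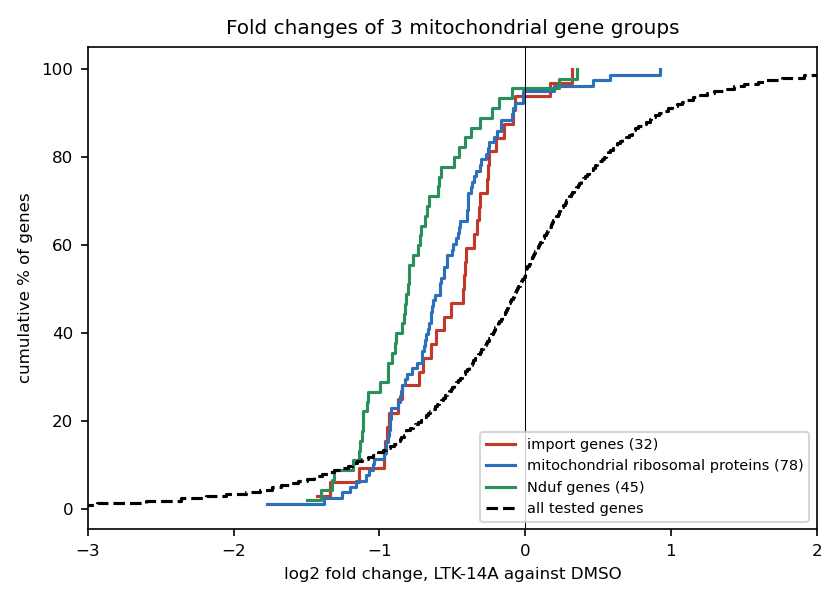
Cumulative share of genes by log2 difference of LTK-14A against DMSO for import genes, Mrpl and Mrps genes, Nduf genes and all tested genes, with the axis drawn from -3 to 2. The medians lie at -0.43, -0.58, -0.80 and -0.05 in that order.

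Adipocyte markers were also lower in LTK-14A libraries, while fibroblast and preadipocyte markers were mixed. The summed level of 6 adipocyte markers ranged from 2747 to 3185 units in LTK-14A, 28063 to 28983 in DMSO and 25071 to 33268 in untreated libraries, and all 6 fell against both controls. Between the controls the marker sums did not follow the import genes. The DMSO marker sums lay within the untreated range, whereas the summed import level was lower in each DMSO library than in each untreated library. The sum of 7 fibroblast and preadipocyte markers ranged from 71134 to 74639 in LTK-14A, 42969 to 46350 in DMSO and 46019 to 67930 in untreated libraries. Of the 7, Dlk1, Fn1 and Thy1 rose against DMSO and 3 had a log2 difference below 0. Against untreated cells Fn1 and Thy1 rose, and 4 of the 7 were below 0, with a median of -0.16. Fn1 weighed most in the LTK-14A sum, with 33277 and 33981 units in LTK-14A, 11442 and 11305.5 in DMSO and 13157 and 14030 in untreated libraries. The label of differentiated adipocytes thus fitted both controls by their markers, while the LTK-14A libraries held adipocyte markers at a lower level. Of 5 macrophage markers, Ptprc and Itgam were at 0 in all 6 libraries, and the sum was 84.6 to 87.9 in LTK-14A, 42.2 to 59.3 in DMSO and 37.6 to 47.9 in untreated libraries. Cd68 alone rose against both controls, with 62.3 and 67.2 units in LTK-14A, 14.9 and 16.6 in DMSO and 11.1 and 8.29 in untreated libraries, while Csf1r had 23.8 and 17.4 in LTK-14A, 27.4 and 42.6 in DMSO and 26.5 and 39.7 in untreated libraries and did not pass. Smooth muscle markers (4 genes) summed to 3212 to 3752 in LTK-14A, 2055 to 2311 in DMSO and 1751 to 2524 in untreated libraries. Most of that sum was Acta2, with 3700.5 and 3182 units in LTK-14A, 2218 and 1988 in DMSO and 1663 and 2439 in untreated libraries. Acta2 rose against untreated cells (0.77, limma adjusted p = 0.0378), and its difference of 0.71 against DMSO did not pass (limma adjusted p = 0.0560). Myh11 fell against both controls at low levels, with 10.1 and 9.16 units in LTK-14A, 35.5 and 24.2 in DMSO and 55.7 and 37.3 in untreated libraries. The endothelial (4) and epithelial (4) markers summed to at most 9.58 in any library, with Epcam, Krt8 and Cdh1 at 0 throughout. The part of these marker changes in the import levels was not tested.

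Totals of normalized values ranged from 6122687 to 7091007 per library. Measured in the commonest low value of each library, a stand-in for reads, they came to between 2737871 and 6388295, deepest in the untreated libraries. Untreated replicate 2 stood apart, with 16.4% of its total at the ribosomal RNA loci Gm26917 and Gm42418, while the other libraries had 8.60% to 10.6%. Without it, 11 members fell against DMSO, against 8.86% of all tested genes, and 15 against untreated cells, against 6.86%.

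The calls rested on few libraries. Samm50 passed against DMSO without any 1 of the 6 libraries (largest limma adjusted p = 0.0484). Grpel1 passed in all but 1 such case (limma adjusted p = 0.0516 without DMSO replicate 2). Tomm40 did not pass without LTK-14A replicate 2, DMSO replicate 1 or DMSO replicate 2 (limma adjusted p = 0.0631, 0.0682 and 0.0896). Each of the other 6 genes that fell against DMSO did not pass when any 1 of the 4 LTK-14A and DMSO libraries was left out, and in all 6 such runs the log2 difference of each of the 9 genes was below 0. Against untreated cells, Samm50, Grpel1 and Tomm40 passed without any 1 of the 6 libraries. The calls of Timm23, Timm29 and Tomm6 against untreated cells held in 7, 6 and 4 of 15 alternative settings. Each of these calls was lost when any 1 of the 4 LTK-14A and DMSO libraries was left out. Timm23 and Tomm6 were also lost without untreated replicate 2, and Timm29 without untreated replicate 1.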

How the data were processed

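Total RNA of 6 samples of 3T3-L1 cells (3 groups of 2) was sequenced after depletion of ribosomal RNA with a stranded kit, per the labels' protocols. The authors deposited 1 table with 53342 genes and, for each library, 1 value on a log10 scale. These behave as log2 expression, log10-transformed once more, of scaled read counts not divided by gene length; this was read from the values, since no header states it. Per the submitters' processing notes, mm10 was the build. Aligner, counter, use of strand, annotation and normalization: not given in the sources used here. Values x were turned back as 2 to the power of 10 to the power of x, and a deposited 0, which marks a value of at most 1, was kept as 0. Between 23.4% and 28.7% of low values were whole multiples, within 0.01, of the commonest low value of their library, so reads were not recovered, no count test was used, and no counting interval is given.

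The 24139 genes at 1 or more in 2 or more libraries were fitted on log2(value + 1) with limma 3.58.1 in R 4.3.3, with 3 group means, a mean-variance trend and Benjamini-Hochberg adjustment over all genes at 0.05, two-sided. Fold changes on that scale understate the change of low genes. Ratios of related genes were set against an exact permutation test. The fitting code was run on simulated data with known changes, as a check of the code only. Those data held no outlying library and no difference in depth, so they do not show how reliable the calls here are. Exon overlap was read from GENCODE vM21, in which 29 members have the coordinates of the table. Alternatives were 3 scalings, 2 filters, a pseudocount of 0.1, no variance trend, a replicate block, each pair of groups alone, and each library left out.

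Every member is accounted for. By rule, values per library are given for the channel, receptor, chaperone, motor and peptidase members and any other member past the threshold, and the 2 to 4 genes of each partner list with the smallest p against DMSO are named. Values per library of the remaining members were added after values were seen. So were those of Cycs, Chchd4, Immt, Hsp90ab1, Dnajc15 and the markers Cd68, Csf1r, Acta2 and Fn1. Agk, Vdac2, Nrf1, Gabpa and Myh11 were added then as well. The members and lists were chosen with earlier results of these data known.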

Additional observations from a re-analysis of the deposited data

How the results depend on the processing

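Over the 15 alternatives, the values of single import genes gave the same call in 1311 cases, lost it in 97 and gained it in 18, and no value that passed in either setting changed sign; signs of values past the threshold in no setting were not compared. Samm50 passed in all 15 alternatives against both controls, and Grpel1 in 13 against DMSO (not without the variance trend or without DMSO replicate 2). Tomm5 passed against DMSO in 6 (not, among others, under quantile normalization, median-of-ratios scaling or no filter) and Timm50 in 9 (not, among others, under quantile normalization). Against untreated cells, Tomm6 passed in 4, with no call under any of the 3 scalings, Timm29 in 6 and Timm23 in 7. Without the variance trend, 1 import gene passed against DMSO, 5 passed against untreated cells, and the counts over all genes were 1205, 1387 and, for DMSO against untreated, 8. Fitting LTK-14A and untreated cells alone gave 2044 genes, and fitting DMSO and untreated cells alone gave 0. With a pseudocount of 0.1, DMSO against untreated gave 3 genes. With 1 library left out, where a lone sample is taken to vary like the other groups, 1 to 11 import genes passed against DMSO and 3 to 16 against untreated cells. Over all genes, 591 to 3629 passed against DMSO, 867 to 4016 against untreated cells and 0 to 109 between DMSO and untreated cells (109 without untreated replicate 1). The cause of these shifts was not tested. The summed import level in DMSO cells was 10084 under median-of-ratios scaling and 10399 when scaled without the ribosomal RNA loci, both beyond its small SD.

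Replicate numbers are shared by the labels, but deviations of same-numbered libraries correlated at 0.05 for LTK-14A and DMSO, -0.02 for LTK-14A and untreated, and 0.17 for DMSO and untreated cells over 13179 genes, so the numbers were not taken to pair samples. With a replicate block, 8 import genes passed against DMSO (Tomm5 did not), 15 passed against untreated cells and 0 between the controls. Of all 24139 tested genes, 2635, 3269 and 5 passed in these comparisons in either direction. With 2 libraries a group and no read counts, small differences of low genes such as Pam16 and Timm8a2 were not detectable.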
